A study of Homo sapiens with 8 samples.

Results

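The 6 genes described here, PSKH1, TCF4, CCDC126, C14orf159, BRWD1 and PANK1, come from a list of miR-155 targets found by Ago2 immunoprecipitation in ST486, a Burkitt lymphoma cell line in which miR-155 was overexpressed. That list held 54 genes, of which 48 lay outside a group of 6 that went into follow-up experiments, and these 6 genes were taken by name from the 48. They are described in another cell line, L1236, an established Hodgkin lymphoma line with high endogenous miR-155. All probes whose transcript accession belongs to them were used, which gave, for 6 of the 16557 genes named on the array, 12 of the 41000 probes on the array, and 7 of the 12 passed the filters that left 22470 probes (called kept below). A kept probe passed background in 4 or more of 8 array channels, with Cy3 and Cy5 readings within 2-fold in every RNA sample. The probe named in the ST486 list is called the ST486 probe of a gene.

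A pair of L1236 cell populations was compared, both transduced by retrovirus and sorted for GFP. EV cells carried the empty pMSCV-PIG vector, and sponge cells expressed a miR-155 sponge, an RNA made of repeated sites that bind the microRNA. Total RNA (T) and Ago2-immunoprecipitated RNA (IP) of each population were hybridised together, once with IP in Cy5 and once with the dyes exchanged, so that 4 arrays gave 8 channels. Each group (EV T, EV IP, sponge T and sponge IP) held 1 RNA sample, so no difference has a replicate check and no test was run. Each ± is an SD, taken for ratios over both dye orientations and for differences in T or in IP over both dyes. It reflects technical error alone, without the spread between cultures or precipitations.

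MicroRNAs guide Ago2 to messenger RNAs that carry a match to the seed of the microRNA, which lowers the stability or translation of these messengers, so transcripts under microRNA control are overrepresented in Ago2-bound RNA. The IP/T ratio measures this. A sponge offers competing sites, and a transcript held on Ago2 mainly by miR-155 would then be less abundant in the IP fraction. The authors propose, however, that the sponge left part of the abundant miR-155 in these cells free. An unchanged ratio therefore does not show that a transcript is not bound by miR-155. The microRNA that links the 6 genes is miR-155-5p, at chr21:25573983-25574006 on the plus strand of GRCh38.p14 (RefSeq), shown with its seed (bases 2 to 8) in capitals because the ST486 list was drawn up around it.
hsa-miR-155-5p: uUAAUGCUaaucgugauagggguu
Sites for this seed in the 6 transcripts were not analysed here.

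At the scanner, 54.1% of the spots were well above background in sponge T labelled with Cy5, against 61.0% to 65.7% in the other 7 channels. All 5 Hodgkin cell markers on a list (TNFRSF8, CCL17, FSCN1, TRAF1 and IRF4) were detected, with a summed level (log2) of 17.8 in EV T, 18.1 in sponge T, 17.2 in EV IP and 17.4 in sponge IP. Of 5 B-cell identity genes, 3 were detected, and MS4A1 and CD22 were well above background in 0 channels, as were the T-cell gene CD3D and the monocyte genes CD163 and LYZ. The summed level of the B-cell genes was 13.0 in EV T, 13.1 in sponge T, 12.2 in EV IP and 12.1 in sponge IP. That of the T-cell genes, with 2 of 3 detected, was 7.78, 8.13, 7.19 and 7.27 in the same order, and CD14, detected alone of 3 monocyte genes, had 7.24, 7.63, 6.97 and 7.17. The part of other cells in the results was not tested.

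Of the 6 genes, PSKH1, TCF4, CCDC126 and BRWD1 had IP/T ratios of 2 or more in EV cells and in sponge cells by their ST486 probe, counting only T readings that passed background, and C14orf159 had not. PANK1 had no such T reading in EV cells, so its ratio there is known only by a lower bound, at least 1.29-fold. PSKH1 and TCF4 had lower ratios in sponge cells in both dye orientations, and their signal differed more in IP than in T. By its ST486 probe, the ratio of CCDC126 was nearly equal in both populations. The ST486 probes of BRWD1 and PANK1 gave low T signals that differed between the dyes, which left their change undetermined. Another BRWD1 probe, A_24_P861009, was well above background in all 8 channels, with a change in log2 IP/T of -0.20 ± 0.08.

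**Figure D1:**
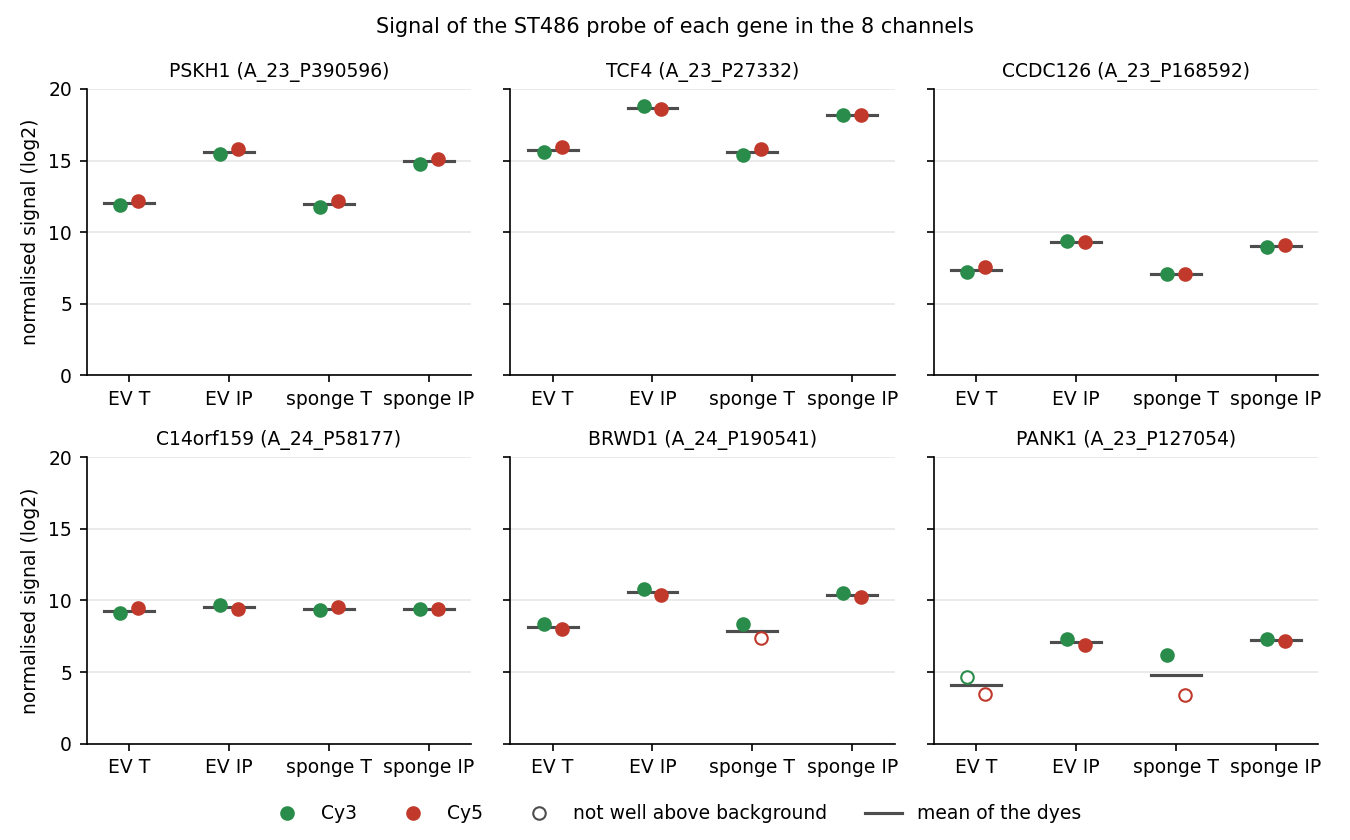
Normalised signal (log2, y axis) of the ST486 probe of each gene in EV T, EV IP, sponge T and sponge IP, with green points for Cy3, red points for Cy5, open points for channels not well above background and a line at the mean of both dyes. The IP points lie above the T points for every gene except C14orf159, and open points occur only in the T samples of BRWD1 and PANK1.

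PSKH1, a serine/threonine kinase found at the Golgi apparatus and in nuclear speckles, had the highest measured IP/T ratio of the 6 ST486 probes. Its probe A_23_P390596 (NM_006742) was well above background in all 8 channels. The normalised signal (log2) was 11.88 and 12.18 in EV T (Cy3 and Cy5), 15.43 and 15.78 in EV IP, 11.74 and 12.19 in sponge T, and 14.77 and 15.13 in sponge IP. Both IP samples lay above both T samples in either dye, and the sponge IP readings lay below the EV IP readings. The IP/T ratio was 11.9 in EV cells (log2 3.58 ± 0.45) and 7.91 in sponge cells (log2 2.98 ± 0.56). Of all kept probes, 0.832% had a ratio this high or higher in EV cells, and 1.62% in sponge cells.

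In PSKH1 the log2 IP/T ratio was lower in sponge cells by 0.51 with IP in Cy5 and by 0.67 with IP in Cy3, a mean change of -0.59 ± 0.11. A change this low or lower was found for 1.37% of the kept probes. In T the sponge and EV cells differed by -0.06 ± 0.10 on the log2 scale, less than the spread between dyes. In such bulk samples, fewer cells with a transcript and less of it per cell cannot be told apart. In IP they differed by -0.65 ± 0.005, and 0.441% of the kept probes had a difference this low or lower. Over 8 other ways of processing, the change in IP/T stayed between -0.67 and -0.50 and the difference in IP between -0.74 and -0.57. The paralog PSKH2 was well above background in at most 2 channels and was not described further.

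TCF4, the E protein E2-2, is a basic helix-loop-helix transcription factor of the B lineage. Its signal (probe A_23_P27332, NM_003199, above background in all 8 channels) was 15.59 and 15.93 in EV T, 18.81 and 18.60 in EV IP, 15.41 and 15.80 in sponge T, and 18.16 and 18.16 in sponge IP. The IP readings of sponge cells lay below those of EV cells in both dyes, and so did the T readings, by a smaller amount. The IP/T ratio was 7.67 in EV cells (log2 2.94 ± 0.09) and 5.88 in sponge cells (log2 2.56 ± 0.27). The change was -0.38 ± 0.18, with -0.25 and -0.51 in the 2 orientations, and 4.44% of the kept probes had a change this low or lower. The difference between sponge and EV cells was -0.54 ± 0.15 in IP and -0.16 ± 0.04 in T. The change in IP/T lay between -0.51 and -0.25 over the 8 other ways of processing.

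E proteins pair with each other and are held inactive by the ID proteins and by MSC (ABF1), which Hodgkin cells are known to express. Of 7 such genes on a list (TCF3, TCF12, ID1, ID2, ID3, ID4 and MSC), 6 were detected, and ID4 was well above background in 0 channels. By the brightest probe of each gene, 0 of 6 reached an IP/T ratio of 2 in either population, against 17.5% of all kept probes. The E proteins TCF3 and TCF12 had log2 IP/T ratios of -0.23 ± 0.43 and 0.06 ± 0.02 in EV cells. Among the inhibitors, ID2 had 0.75 ± 0.007, MSC 0.32 ± 0.19, ID3 0.04 ± 0.14 and ID1 -0.26 ± 0.20. The ratios of ID2 and MSC were higher in sponge cells, by 0.24 ± 0.02 and 0.29 ± 0.002 on the log2 scale, opposite in sign to TCF4. That of ID3 was higher by 0.19 ± 0.03. The changes of TCF12 (0.09 ± 0.11), TCF3 (-0.11 ± 0.20) and ID1 (-0.04 ± 0.18) lay within their spread. In ID2 the difference lay mainly in IP (0.32 ± 0.04). In MSC and ID3 it came with a lower T signal (-0.44 ± 0.09 and -0.31 ± 0.06). Their IP signal was lower in sponge cells too, as in TCF4, but by less than T (-0.15 ± 0.09 and -0.11 ± 0.03).

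CCDC126, a gene for a coiled-coil protein of little known function, was measured by 3 probes on the same transcript (NM_138771). The ST486 probe A_23_P168592 was well above background in all 8 channels, with signals of 7.24 and 7.54 in EV T, 9.41 and 9.29 in EV IP, 7.09 and 7.08 in sponge T, and 8.93 and 9.11 in sponge IP. The IP readings lay above the T readings in both populations. The IP/T ratio was 3.88 in EV cells (log2 1.95 ± 0.13) and 3.83 in sponge cells (log2 1.94 ± 0.12). The change of -0.02 ± 0.02 turned to 0.28 when Cy5 labels alone were used. T and IP were lower in sponge cells by similar amounts, -0.31 ± 0.22 and -0.33 ± 0.20 on the log2 scale. With normexp background correction, which compresses low signals, the log2 IP/T in EV cells was 0.79 or 0.70, below 2-fold.

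Both other CCDC126 probes failed the dye filter, and the Cy5 readings of sponge T (both probes) and of EV T (A_23_P168587) did not pass background. The signals of A_23_P168587 were 5.83 and 5.35 in EV T, 9.23 and 9.12 in EV IP, 5.90 and 3.41 in sponge T, and 8.81 and 8.71 in sponge IP. Those of A_24_P354954 were 6.18 and 5.90 in EV T, 9.01 and 8.78 in EV IP, 6.67 and 3.30 in sponge T, and 8.70 and 8.53 in sponge IP. In both probes the sponge T reading in Cy5 stood apart from the Cy3 reading, by 2.48 and 3.37 on the log2 scale. Their log2 IP/T ratios in EV cells were 3.58 ± 0.41 and 2.86 ± 0.36 from all readings, and 3.29 and 2.86 from T readings that passed background, against 1.95 for the ST486 probe. Their change in IP/T from all readings could not be placed, at 0.52 ± 1.41 and 0.77 ± 2.14. T readings that passed background left only the orientation with IP in Cy5, where the change was -0.48 and -0.74. In IP, where the dyes were close, all 3 probes were lower in sponge cells, with -0.42 ± 0.004 and -0.28 ± 0.04 for these probes.

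C14orf159, now named DGLUCY, encodes a mitochondrial enzyme that acts on D-glutamate. Its ST486 probe A_24_P58177 is annotated with an Ensembl transcript and was assigned to the gene through the ST486 list. The signal was 9.10 and 9.46 in EV T, 9.66 and 9.38 in EV IP, 9.31 and 9.53 in sponge T, and 9.40 and 9.42 in sponge IP, so that the T and IP readings overlapped in both populations. The log2 IP/T ratio was 0.24 ± 0.06 in EV cells, and -0.08 with Cy5 labels alone. In sponge cells it was -0.01 ± 0.17. The change of -0.25 ± 0.11 was reached or passed by 11.6% of the kept probes.

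The second C14orf159 probe, A_23_P48771 (NM_024952), was depleted from the IP fraction. It read 10.66 and 10.77 in EV T, 9.63 and 9.78 in EV IP, 10.54 and 10.79 in sponge T, and 9.69 and 9.86 in sponge IP. The IP readings were below the T readings without overlap. The log2 IP/T ratio was -1.01 ± 0.19 (EV) and -0.89 ± 0.29 (sponge), and the change was 0.12 ± 0.11. Both probes were well above background in all 8 channels, yet their log2 IP/T in EV cells differed by 1.25. Of the other D-amino acid enzymes on a list, serine racemase (SRR) reached 0.48 ± 0.10 (log2 IP/T, EV cells), DAO was well above background in 0 channels and no probe matched DDO.

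BRWD1, a chromatin protein with WD repeats and bromodomains, was measured by 4 probes on 3 transcripts. A_24_P861009 (NM_001007246) gave the most precise values, with 11.29 and 11.27 in EV T, 13.49 and 13.61 in EV IP, 11.24 and 11.16 in sponge T, and 13.24 and 13.30 in sponge IP. The IP readings were above the T readings, and sponge IP was below EV IP in both dyes. Its IP/T ratio was 4.83 in EV cells (log2 2.27 ± 0.07) and 4.20 in sponge cells (log2 2.07 ± 0.005). The change was -0.20 ± 0.08, reached or passed by 16.1% of the kept probes. The difference in IP was -0.28 ± 0.04 and that in T was -0.08 ± 0.04, the latter turning to 0.04 with normexp, loess and Aquantile normalisation.

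The ST486 probe of BRWD1, A_24_P190541 (NM_018963), read 8.33 and 8.02 in EV T, 10.81 and 10.38 in EV IP, 8.39 and 7.37 in sponge T, and 10.51 and 10.25 in sponge IP. It failed the dye filter through sponge T alone, with a dye gap of 1.02 on the log2 scale, just past the limit of 2-fold, and the Cy5 reading there did not pass background. The log2 IP/T ratio was 2.42 ± 0.52 (EV) and 2.50 ± 0.91 (sponge). The change was 0.08 ± 0.39, smaller than its spread, and -0.19 from T readings that passed background, with IP in Cy5 only. The difference in IP was -0.22 ± 0.12. With normexp, loess and Aquantile normalisation the ratio in sponge cells was below 2-fold (log2 0.96).

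The remaining BRWD1 probes were dim in T and have only bounds for the ratio in EV cells. A_23_P211136 (NM_018963) read 4.51 and 3.26 in EV T, neither well above background, and 7.06 and 6.58 in EV IP, so IP was at least 1.22-fold higher. In sponge cells it read 5.75 and 3.51 in T and 6.91 and 6.38 in IP. There the Cy3 reading of T alone passed background, and it gave a log2 IP/T ratio of 0.63, below 2-fold. Its difference in IP, -0.18 ± 0.03, turned to 0.009 with normexp, loess and Aquantile normalisation. A_24_P231025 (NM_033656) was well above background in the 4 IP channels and in no T channel, with 3.09 and 3.13 in EV T, 6.62 and 6.07 in EV IP, 3.61 and 3.14 in sponge T, and 5.97 and 5.63 in sponge IP. Its IP signal was at least 1.14-fold above T in EV cells and at least 1.12-fold above T in sponge cells, and sponge and EV cells differed in IP by -0.55 ± 0.14 on the log2 scale. Apart from that turn, all 4 BRWD1 probes had a lower IP signal in sponge cells in both dyes. Of the related genes, BRWD3 reached a log2 IP/T ratio of 1.96 ± 0.23 in EV cells with a change of -0.14 ± 0.17, and PHIP had -0.77 ± 0.12 with a change of 0.14 ± 0.15.

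PANK1 encodes a pantothenate kinase, which catalyses the first and controlling step of coenzyme A synthesis, and its gene also holds the microRNA miR-107. The only probe, A_23_P127054 (NM_148977), read 4.66 and 3.49 in EV T, neither well above background, and 7.30 and 6.90 in EV IP. In sponge cells it read 6.21 and 3.39 in T, with the Cy3 reading alone well above background, and 7.29 and 7.18 in IP. IP was at least 1.29-fold above T in EV cells. In sponge cells the T reading that passed background gave a log2 IP/T ratio of 0.97, below 2-fold. From all readings, log2 IP/T was 2.25 and 3.81 in the 2 orientations of EV cells, and 0.97 and 3.90 in those of sponge cells, and the change of -0.59 ± 0.97 was smaller than its spread. The IP signal itself differed by 0.13 ± 0.20 between the populations, within its spread. The T signal differed by 0.73 ± 1.17, also within its spread, with 1.55 in Cy3 and -0.10 in Cy5.

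All 6 other genes of coenzyme A synthesis on a list were detected, and 2 of 6 had an IP/T ratio of 2 or more in both populations, against 17.5% of all kept probes in either. PANK3, another pantothenate kinase, reached a log2 IP/T ratio of 2.13 ± 0.23 in EV cells with a change of -0.17 ± 0.28. PPCS, the enzyme of the next step, had 1.15 ± 0.16 with a change of 0.001 ± 0.05. The kinase PANK2 had 0.07 ± 0.05, with a change of 0.37 ± 0.15. PANK4, PPCDC and COASY lay on the T side, at -1.07 ± 0.06, -1.38 ± 0.38 and -1.50 ± 0.02. Of the genes named PANK on this list, PANK3 was thus enriched, PANK2 near 0 and PANK4 depleted in the same IP sample.

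**Figure D2:**
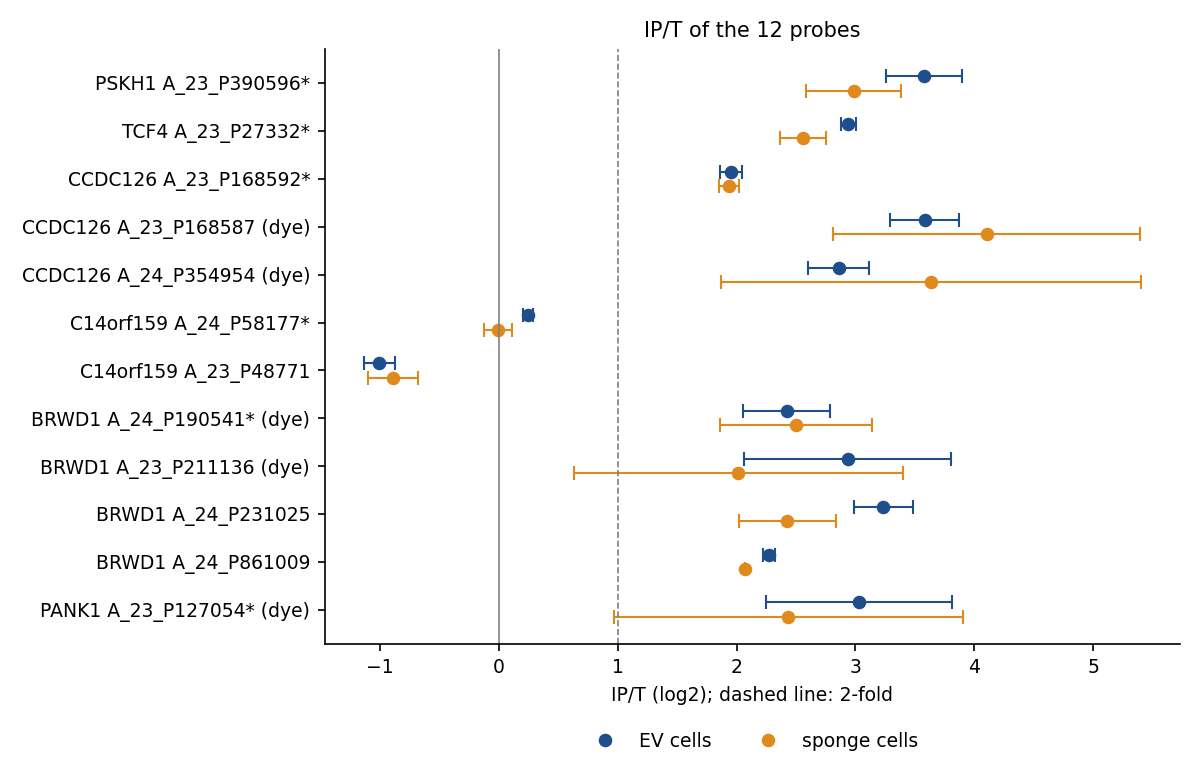
IP/T ratio (log2, x axis) of the 12 probes in EV cells (blue) and sponge cells (orange), with points for the mean, bars reaching to the values of both dye orientations, a star for the ST486 probe and "(dye)" for probes that failed the dye filter. In 7 of the 12 probes the T readings that passed background place the ratio at 2-fold or more in both populations, 3 further probes (BRWD1 A_23_P211136 and A_24_P231025, PANK1) have EV points that rest on T below background, and the longest bars belong to sponge cells of the probes with low T signals.

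Across the 6 ST486 probes, with T readings that passed background, 4 of 6 had an IP/T ratio of 2 or more in EV cells, against 16.1% of all kept probes counted likewise, and 4 of 6 had one in sponge cells, against 15.7%. Taking all readings at face value, PANK1 joined them (5 of 6 in each population, against 17.5% and 17.5% of all kept probes). With PANK1 at its bound in EV cells, the median log2 IP/T ratio was 2.19 (EV) and 1.90 (sponge), against -0.16 and -0.13 over all kept probes from all readings. With normexp background correction 3 of 6 were enriched in EV cells, against 9.73% or 8.26% of all kept probes by setting. In sponge cells 2 or 3 of 6 were enriched, against 7.86% or 7.88%. Among the 4 ST486 probes that were kept, 3 were enriched in each population. Of all 12 probes, 7 reached 2-fold in EV cells and 7 did in sponge cells by T readings that passed background.

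Of the 5 ST486 probes with T above background in both populations, PSKH1, TCF4, CCDC126 and C14orf159 had a lower IP/T ratio in sponge cells in both orientations (4 of 6 ST486 probes), against 28.8% of all kept probes. In the mean of all readings the ratio was lower for these 4 and for PANK1, whose value is undetermined, against 46.9% of all kept probes. The change of CCDC126 was slight (-0.02 ± 0.02) and turned to 0.28 with Cy5 labels alone. C14orf159 was not enriched in EV cells, and its difference in IP (-0.11 ± 0.21) lay within its spread. The IP signal was lower in both dyes for 4 of 6, against 35.7%. The T signal was lower in both dyes for 2 of 6, against 33.4%, so this share (33.3%) was near the background. The median difference between sponge and EV cells was -0.27 in IP and -0.11 in T on the log2 scale, and that of the change in IP/T was -0.32, PANK1 included. In the mean of all readings, none (0 of 12 probes) met the criterion applied in the ST486 experiment, which 0.0935% of the kept probes met. Here it was enrichment in EV cells with a ratio lower by 2-fold or more in sponge cells. Probes whose EV T did not pass background met it in some other settings. The change was -1.28 for BRWD1 A_23_P211136 (75th percentile scaling), -1.17 for BRWD1 A_24_P231025 (Cy3 labels only) and -1.28 for PANK1 (IP in Cy5 only).

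**Figure D3:**
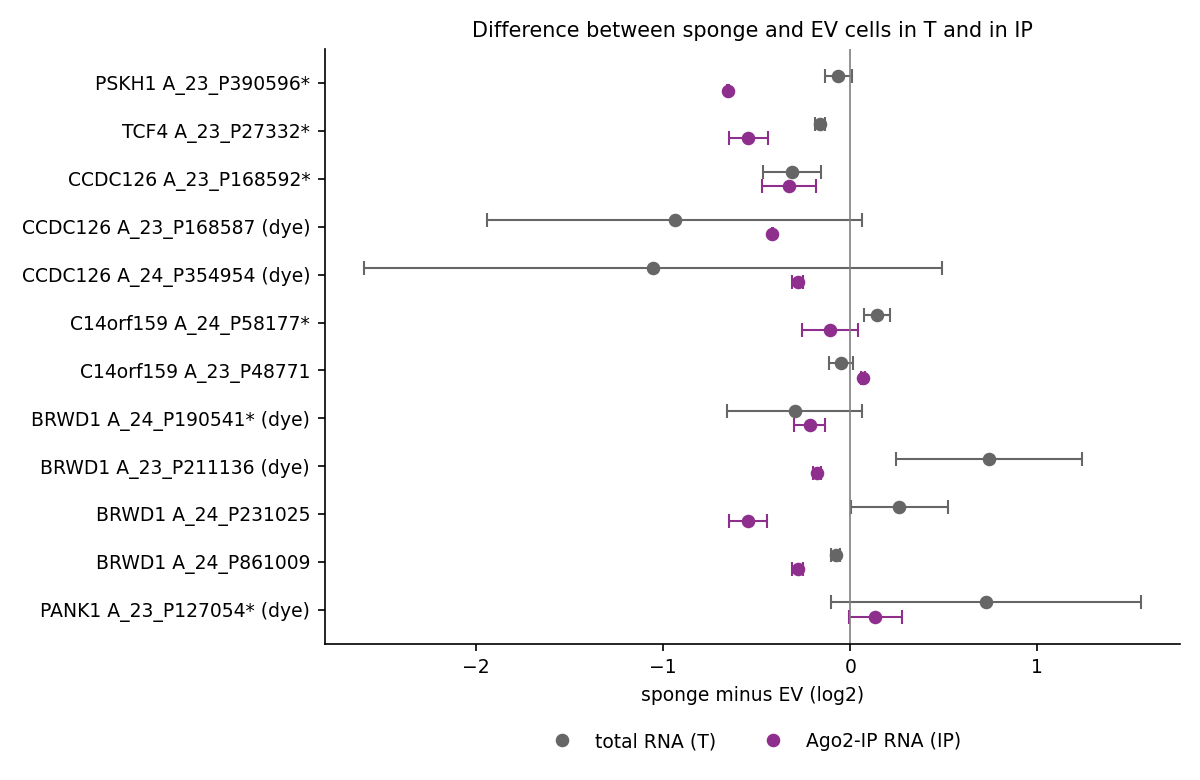
Sponge minus EV signal (log2, x axis) of the 12 probes in T (grey) and in IP (purple), with points for the mean, bars reaching to the values of both dyes, a star for the ST486 probe and "(dye)" for probes that failed the dye filter. The IP points lie left of 0 for 10 of 12 probes, where the median difference in IP over all kept probes was 0.0062. The IP signal was lower in both dyes for 9 of 12 (5 of the 7 kept), against 35.7% of all kept probes. Some probes share a gene (CCDC126, C14orf159 or BRWD1), so the 12 are not independent. The longest bars belong to T of the probes with low T signals.

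The 5 probes that failed the dye filter had their largest dye gap in sponge T, where the gap ran from 1.02 to 3.37 on the log2 scale with Cy5 as the lower reading. Sponge T in Cy5 was also the channel with the fewest spots above background, and its part in these values was not tested. The IP signals of the same probes differed between the dyes by at most 0.52. All 12 probes passed the filter on detection, A_24_P231025 of BRWD1 through its IP channels alone.

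The other ST486 genes showed similar counts. Of 42 such genes outside the follow-up group, 41 were kept, 31 had an IP/T ratio of 2 or more in EV cells and 31 had one in sponge cells by T readings that passed background (34 and 33 from all readings), with a median log2 ratio of 1.94 and 1.83 from all readings. The ratio was lower in sponge cells in both orientations for 25 of the 41, and the IP signal was lower in both dyes for 32. Their median change in IP/T was -0.18, with the lowest at -0.42, so that PSKH1 (-0.59) lay below all 41 and TCF4 (-0.38) within their range. Ranked among 47 genes of the list, PSKH1 held place 5 for IP/T in EV cells and place 2 for the fall in sponge cells, and TCF4 held places 8 and 4. CCDC126, C14orf159 and BRWD1 held places 25, 45 and 18 for IP/T in EV cells. For the fall they held places 38, 20 and 43, with the change of BRWD1 within its spread. The undetermined value of PANK1 took place 1 for the fall.

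Lower IP/T ratios in sponge cells were also more frequent among strongly enriched probes in general. The share with a lower ratio in both orientations was 43.3% of the 3924 kept probes enriched in EV cells, 45.4% of those with a ratio of 4 to 8 and 61.0% of the 382 with a ratio of at least 8, and the median change in this last class was -0.18. The EV values enter both quantities, so they are not independent. PSKH1 belonged to the class of at least 8 and TCF4 to that of 4 to 8.

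**Figure D4:**
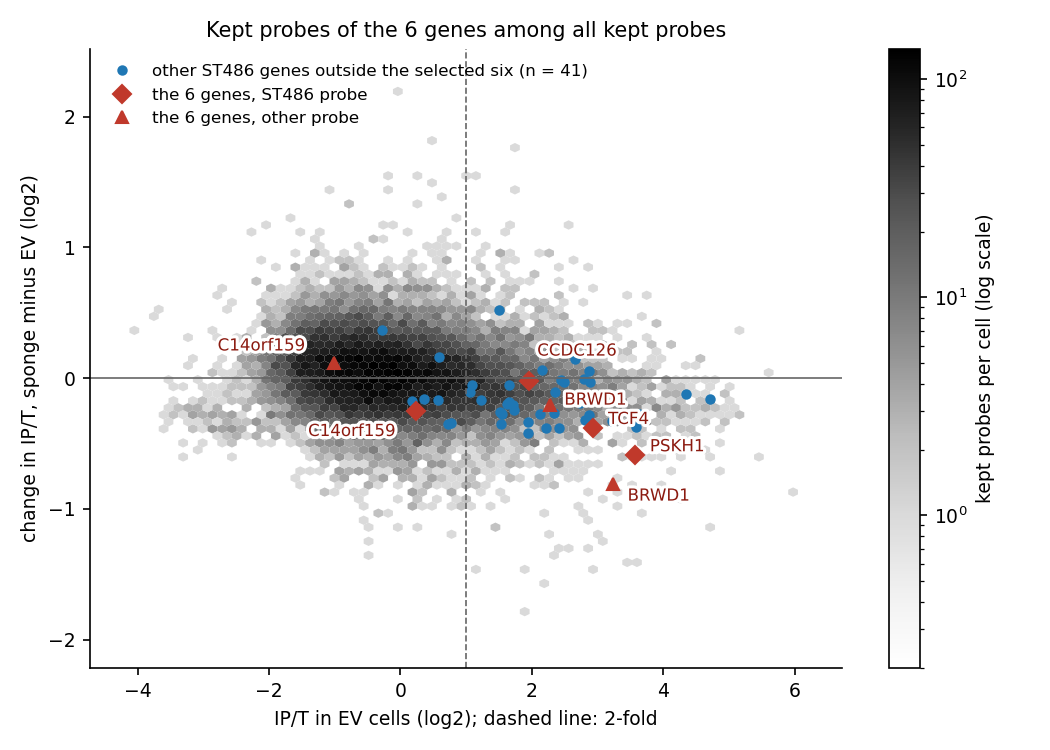
Change in IP/T (sponge minus EV, log2, y axis) against IP/T in EV cells (log2, x axis) for all kept probes (grey cells, darker for more probes), the 41 other ST486 genes (blue circles) and the 7 kept probes of the 6 genes (red diamonds for ST486 probes, red triangles for other probes). PSKH1, TCF4 and the BRWD1 probe A_24_P231025, whose T is not well above background, lie at the lower right, and CCDC126 lies near 0.

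The genes whose pattern over the 4 RNA samples was most like each of the 6 were found by the distance between log2 values, each probe centred on its own mean. For PSKH1 the nearest was TAB2, an adaptor of NF-kB signalling that is also on the ST486 list, at a distance of 0.188, with log2 IP/T ratios of 3.58 (EV) and 3.21 (sponge). SLC19A2, a thiamine transporter, and MAT2A, which makes S-adenosylmethionine, followed at 0.213 each. For TCF4 they were TGFBI, a matrix protein induced by TGF-beta, at 0.064, YTHDF1, a reader of methylated RNA, at 0.097, and the chemokine CCL2 at 0.109. Nearest to CCDC126 were USP6NL (0.034), the Notch ligand DLL1 (0.057) and BTNL9 (0.073), and nearest to C14orf159 were FAM76A, PCP4 and ITSN1 at 0.017 to 0.026. BRWD1 had ZWILCH, ZCCHC14 and RAB23 at 0.060 to 0.071, and PANK1 had CSGALNACT1, TCP11L2 and SOCS6 at 0.193 to 0.220. With 4 values a probe, such likeness is a description only.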

How the data were processed

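The authors hybridised T and Ago2-IP RNA of L1236 cells to 44k two-colour Agilent arrays. The deposited scanner files hold spot intensity values and flags from Agilent Feature Extraction (version 10.7.3.1 per the file headers, 10.5.1.1 in the submitters' processing notes), which subtracts background and corrects for dye. Paired files are identical, so 4 arrays gave 8 channels. The deposited series table holds the authors' quantile-normalised log2 values for 22282 probes (GeneSpring GX per the methods), whose ranks matched the channel of the sample's dye (Spearman's rho 1.00), with column medians of 9.85 to 9.90.

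Here, control and outlier spots were left out, spots of a probe averaged, and log2 processed signals quantile normalised over the 8 channels. Following the methods, a probe was kept if well above background in at least 4 of 8 channels (25827 probes) and with Cy3 and Cy5 within 2-fold in each RNA sample (22470). Detected means well above background in at least 4 channels. Where neither channel of a group passed background, the ratio is a bound ("at least N-fold"): the brighter mean over a floor set, per channel, at the dimmest signal of any probe that passed background (or at the measured signal where larger), after normexp (offset 50), loess and Aquantile in limma 3.58.1 under R 4.3.3. Normexp used median spot signals, since the files hold no mean signals, although mean signals had been planned. No spot was saturated. The number of arrays limits the precision.

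Accessions were named through the RefSeq table of GRCh38.p14 (69.5% of kept probes), for names only, since the array annotation follows another build. Named genes were every probe of the 6 genes, from each list of related genes the detected probe with the highest mean signal, and the 3 nearest kept genes. The members and lists were chosen with earlier results of these data known. Calculations used Python 3.11.15 with pandas 2.3.3 and were tested on simulated data. Alternatives were 2 normexp settings, scaling to the 75th percentile, the authors' table, single dyes, single orientations, other filters and, chosen after seeing the data, T readings above background only.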

Additional observations from a re-analysis of the deposited data

Results flagged for a closer look

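Among the related genes, 3 differed between sponge and EV cells in opposite directions in T and in IP in both dyes, a difference that was not tested. PANK2 (A_23_P79942) had -0.13 ± 0.07 in T and 0.24 ± 0.08 in IP on the log2 scale. PANK4 (A_23_P149690) had -0.051 ± 0.03 in T and 0.19 ± 0.13 in IP. SRR (A_23_P141248) had -0.093 ± 0.07 in T and 0.085 ± 0.007 in IP.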

How the results depend on the processing

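From all readings, 5 of the 6 ST486 probes were enriched in EV, 5 in sponge cells, and 5 had a lower IP/T in sponge cells, each count including PANK1, whose EV T did not pass background. With T readings above background only, chosen after seeing the data, 4 (EV) and 4 (sponge) were enriched. With normexp, loess and Aquantile normalisation, 3 (EV) and 2 (sponge) were enriched, against 9.73% and 7.86% of all kept probes. With normexp and quantile normalisation these counts were 3 and 3, against 8.26% and 7.88%. The offset of 50 compresses low signals by construction. The authors' table holds 4 of the 6 probes, of which 3 were enriched in each population. With Cy5 labels only, 3 had a lower IP/T in sponge cells, and the cause was not tested. Of 455 recomputed values of the 12 probes, 45 had the opposite sign, 39 of them for results within their own spread of 0. The 6 others were the change in IP/T of CCDC126 A_23_P168592 (0.28) and the IP/T in EV cells of C14orf159 A_24_P58177 (-0.078) with Cy5 labels only, the difference in T of C14orf159 A_24_P58177 (-0.032 with normexp, loess and Aquantile, -0.011 with normexp and quantile) and of BRWD1 A_24_P861009 (0.039), and the difference in IP of BRWD1 A_23_P211136 (0.0094), the last pair with normexp, loess and Aquantile. Under that setting the median difference in T of the other ST486 genes was 0.028. No paired analysis was possible because each group is 1 RNA sample and no test was run. Signals of PANK1 and of 2 BRWD1 probes near background limit their ratios in EV cells to bounds. For BRWD1 A_24_P231025 this also holds in sponge cells.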
